A study of Mus musculus with 8 samples.

Results

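Genes listed as targets of canonical Wnt signalling were followed in mouse embryonic stem cells (ESCs) depleted of Hira, Ubn1 or Ubn2. The genes were Axin2, Nkd1, Rnf43, Dkk1, Lgr5, Lef1, Tcf7, Tcf7l1, Sp5 and Cdx1. Of these, Tcf7l1 is a repressor of the pathway and not a common readout of it. They were chosen by symbol from a list and make up 10 of the 55418 genes counted, and all 10 symbols were found. Hira, Ubn1 and Ubn2 belong to the HIRA histone chaperone, which places the histone variant H3.3 into chromatin without DNA replication, with Ubn1 and Ubn2 as related subunits. The RNA-seq experiment held 8 libraries, 2 for each of 4 groups.

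All groups were E14 ESCs (strain given as 12910la) grown on gelatin in serum with LIF. The control group is labelled wild type, and the study's methods describe a control shRNA against luciferase. The other groups carried a pSUPER-puro plasmid expressing an shRNA against Hira, Ubn1 or Ubn2. The labels give 1000 ng of plasmid per transfection and puromycin at 1 µg/ml for 3 days, starting 24 h after transfection, while the study's methods give a slightly lower dose. The cells were therefore transiently transfected pools and not clones, and the shRNA sequence used for sequencing is not given in the labels. Nothing states that the libraries of a group came from separate cultures, so every p-value measures only the spread between these libraries.

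Canonical Wnt signalling stabilises β-catenin, which enters the nucleus and acts through DNA-binding proteins of the TCF/LEF family. Many of the genes it switches on, such as Axin2, Nkd1, Rnf43 and Dkk1, encode inhibitors of the pathway and form negative feedback. Among the DNA-binding factors, Tcf7 and Lef1 mostly act as activators with β-catenin, whereas Tcf7l1 (also called Tcf3) is the main repressor in ESCs and is known for holding down pluripotency genes. Wnt activity helps ESCs to stay undifferentiated, and later drives mesoderm genes and Cdx genes in the embryo.

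To show regulatory sequence of the targets, RefSeq promoters of GRCm38.p6 were searched on both strands for CTTTGAA, for CTTTGAT, for CTTTGTA and for CTTTGTT, letters that TCF/LEF proteins are known to bind. Promoters were found for 8 of the 10 genes, in 13 windows, and not for Lgr5 and Cdx1. In the 250 bases before the start, 3 of the 13 windows held a match (1 each for Sp5, Lef1 and Dkk1), and over all 32851 promoter windows the share was 14.8%. Sp5 and Axin2 are printed because their promoters differ in this count. Capitals mark the matches, which do not overlap.
Sp5 promoter (chr2:70474673-70474922, plus strand): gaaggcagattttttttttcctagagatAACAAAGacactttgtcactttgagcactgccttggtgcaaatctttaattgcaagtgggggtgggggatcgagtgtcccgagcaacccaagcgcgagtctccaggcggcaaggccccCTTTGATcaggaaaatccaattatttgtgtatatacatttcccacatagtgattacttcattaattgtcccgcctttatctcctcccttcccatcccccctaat
Axin2 promoter (chr11:108920099-108920348, plus strand): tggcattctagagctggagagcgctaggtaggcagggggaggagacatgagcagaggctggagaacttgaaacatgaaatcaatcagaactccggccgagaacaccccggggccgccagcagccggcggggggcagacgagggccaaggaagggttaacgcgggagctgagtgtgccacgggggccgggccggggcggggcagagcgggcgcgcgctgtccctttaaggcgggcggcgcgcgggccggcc
The Sp5 window held CTTTGTT on the opposite strand at position -222 and CTTTGAT at -104, counted from the transcription start, and 1.43% of all windows held 2 or more matches. Dkk1 also held 2, CTTTGAA at -117 and CTTTGTT at -98, whereas the Axin2 window held none. A match is a description of letters and was not tested for binding.

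Values are read counts on genes, given as CPM (counts divided by the library size after TMM, edgeR's scaling of libraries to each other). The libraries held 19710040 to 32706053 counted reads. Each targeted gene was lowered in its own depletion: Hira from 93.5 ± 5.76 to 10.2 ± 0.261 CPM, Ubn1 from 48.5 ± 6.33 to 23.8 ± 0.0369 CPM and Ubn2 from 50.9 ± 1.12 to 27.3 ± 3.92 CPM (mean ± SD, n = 2). All 8 ESC markers were detected in every group, and their summed level lay between 4677 and 5458 CPM in the 8 libraries. The sum hides single markers. After Ubn2 depletion 1 of the 8 was called lower, where 8.75% of all genes were, and after Hira or Ubn1 depletion 0 were called. Dppa5a read 1302 and 1291 CPM in controls and 818 to 921 CPM in the depleted libraries. In Ubn2 libraries Klf4 lay lower (130 and 145 against 189 and 220 CPM) and Esrrb higher (953 and 932 against 752 and 808 CPM). Both Ubn2 libraries stood apart in heart muscle markers, whose summed level was 253 and 160 CPM against 9.21 to 14.2 CPM in the other 6 libraries. Of these 5 markers 4 were called higher after Ubn2 depletion, where 9.59% of all genes were, and Myl7 was called lower. In the Ubn2 libraries Actc1, a cardiac actin, read 85.3 and 49.7 CPM. Actc1 and Tnnt2, at 0.389 CPM or less in controls, passed the count filter only through the Ubn2 libraries. These 2 could therefore only be called higher. Of 5 fibroblast and stroma markers, 3 were called higher and 1 lower after Ubn2 depletion, while only 2 passed the filter in the other depletions. Col1a2, Col3a1 and Postn, at 0.377 CPM or less in controls, passed only through the Ubn2 libraries. These 3 could therefore only be called higher. Thy1, the highest of the 5, read 7.59 and 10.1 CPM in Ubn2 libraries against 13.6 and 14.0 CPM in controls. The Ubn2 libraries also held Col3a1 (6.76 and 4.13 CPM) and Hbb-bs (3.45 and 2.29 CPM), a collagen and a haemoglobin gene with 0 counts in both controls. The part of these heart muscle, stromal and blood RNAs in the Ubn2 results was not tested, and since both Ubn2 libraries hold them, no Ubn2 value without them exists.

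In control ESCs, levels per kilobase of exon spanned a wide range. The order was Tcf7 (20.1 CPM per kb), Cdx1 (7.35), Tcf7l1 (5.27), Axin2 (3.00), Nkd1 (1.35), Lef1 (0.613), Sp5 (0.298), Rnf43 (0.143), Dkk1 (0.0518) and Lgr5 (0.00697). The libraries of each neighbouring pair did not overlap from Tcf7 down to Lef1. From Lef1 downwards, each gene overlapped its next neighbour, so that the order within those neighbouring pairs was not resolved, while genes further apart in the order did not overlap. Dkk1 and Lgr5 were too low for the count filter in every comparison and 8 of 10 genes were tested.

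**Figure D1:**
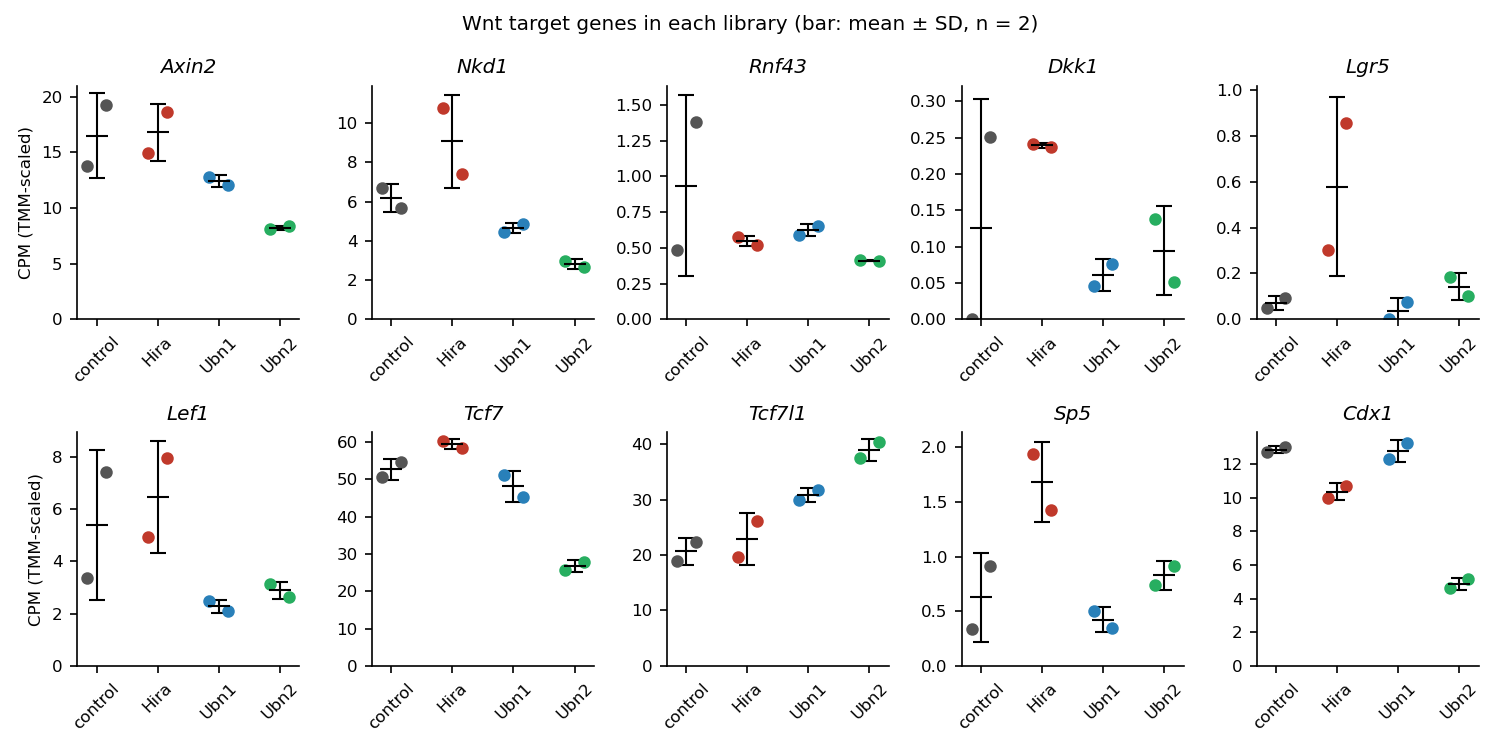
CPM of the 10 genes in each library (vertical axes start at 0 and differ between panels), with points for libraries and a bar for the mean ± SD of 2 libraries. Axin2, Nkd1, Tcf7 and Cdx1 lie below control in both Ubn2 libraries, and Tcf7l1 lies above it.

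The clearest pattern followed Ubn2 depletion. A gene was called when the adjusted p of edgeR's quasi-likelihood test was under 0.05 and the fold change over 1.5. Of the 8 genes tested, 5 were lower (Axin2, Nkd1, Lef1, Tcf7 and Cdx1), 1 was higher (Tcf7l1) and 2 were not called (Rnf43 and Sp5). Over all 18219 genes tested, 8.75% were called lower and 9.59% higher. The median log2 fold change of the 8 genes was -1.0, against -0.0041 over all genes tested. In bulk RNA, fewer cells expressing a gene and less RNA per cell cannot be told apart.

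Axin2 (chr11:108920349-108950783, plus strand), a scaffold of the β-catenin destruction complex and the most widely used Wnt readout, read 13.8 and 19.2 CPM in controls, 15.0 and 18.6 CPM in Hira-depleted, 12.8 and 12.1 CPM in Ubn1-depleted and 8.09 and 8.36 CPM in Ubn2-depleted cells. The Ubn2 libraries lay below all others, the Ubn1 libraries below both controls, and the Hira libraries within the control range. Axin2 fell 2.02-fold after Ubn2 depletion (log2 fold change -1.02, SE 0.16, edgeR adjusted p = 4.79e-05). After Ubn1 depletion the log2 fold change was -0.42 (SE 0.16, edgeR adjusted p = 0.0929), and after Hira depletion it was -0.01 (SE 0.15, edgeR adjusted p = 0.962), neither of which was called.

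Nkd1 (chr8:88521354-88594884, plus strand), an inhibitor that binds Dishevelled, read 6.67 and 5.66 CPM in controls, 10.7 and 7.40 CPM in Hira-depleted, 4.47 and 4.84 CPM in Ubn1-depleted and 2.99 and 2.65 CPM in Ubn2-depleted cells. None of the depletions overlapped the controls: Hira libraries lay above, and Ubn1 and Ubn2 libraries below. Nkd1 fell 2.17-fold after Ubn2 depletion (log2 fold change -1.12, SE 0.22, edgeR adjusted p = 0.000462). After Hira depletion the log2 fold change of 0.57 (SE 0.20) had an edgeR adjusted p of 0.0322 but a fold of 1.48, under the fold threshold. The Ubn1 value was -0.40 (SE 0.21, edgeR adjusted p = 0.272).

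Rnf43 (chr11:87662722-87735539, plus strand), a ubiquitin ligase that removes Frizzled receptors from the cell surface, was expressed at a low level. It read 0.487 and 1.38 CPM in controls, 0.575 and 0.522 CPM in Hira-depleted, 0.593 and 0.653 CPM in Ubn1-depleted and 0.414 and 0.408 CPM in Ubn2-depleted cells. The control libraries differed from each other more than any depleted libraries did. No depletion gave a call, the Ubn2 log2 fold change being -1.24 (SE 0.55, edgeR adjusted p = 0.0807).

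Dkk1 (chr19:30545863-30549665, minus strand), a secreted inhibitor of the co-receptor Lrp6, gave 0 and 8 counts in controls, 8 and 5 in Hira-depleted, 1 and 2 in Ubn1-depleted and 3 and 1 in Ubn2-depleted cells. A count of 0 in the first control library allows up to 0.146 CPM (3 counts). Summed over libraries, the Hira to control ratio was 1.57 with a 95% exact binomial interval of 0.604 to 4.38, and no difference was detectable at this depth. Such intervals cover counting error only.

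Lgr5 (chr10:115450311-115587780, minus strand), a receptor for R-spondins that marks several adult stem cells, gave 1 and 3 counts in controls, 10 and 18 in Hira-depleted, 0 and 2 in Ubn1-depleted and 4 and 2 in Ubn2-depleted cells. Both Hira libraries lay above all others. The summed counts of 28 after Hira depletion and 4 in controls gave a ratio of 6.77 with a 95% exact binomial counting interval of 2.37 to 26.6. Without the count filter, edgeR gave a log2 fold change of 2.78 (SE 0.92, adjusted p = 0.0145). For Ubn1 and Ubn2 the ratios were 0.546 (0.0494 to 3.81) and 1.90 (0.450 to 9.15), so that no difference from control was detectable.

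The TCF/LEF factors themselves moved in different directions after Ubn2 depletion. Tcf7 (chr11:52252371-52283014, minus strand), the most abundant of the 10 genes in controls, read 50.7 and 54.6 CPM in controls, 60.3 and 58.4 CPM in Hira-depleted, 51.1 and 45.2 CPM in Ubn1-depleted and 25.6 and 27.9 CPM in Ubn2-depleted cells. Both Ubn2 libraries lay far below every other library. Tcf7 fell 1.97-fold (log2 fold change -0.98, SE 0.10, edgeR adjusted p = 8.88e-08). The Hira and Ubn1 values, 0.16 (SE 0.09, edgeR adjusted p = 0.168) and -0.13 (SE 0.10, edgeR adjusted p = 0.491), were not called.

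Tcf7l1 (chr6:72626378-72789254, minus strand), the repressor of the family, read 18.9 and 22.4 CPM in controls, 19.6 and 26.2 CPM in Hira-depleted, 30.0 and 31.7 CPM in Ubn1-depleted and 37.6 and 40.4 CPM in Ubn2-depleted cells. The Ubn1 libraries lay above both controls and the Ubn2 libraries above those of Ubn1. Tcf7l1 rose 1.88-fold after Ubn2 depletion (log2 fold change 0.91, SE 0.11, edgeR adjusted p = 1.37e-06). After Ubn1 depletion the log2 fold change was 0.57 (SE 0.12, edgeR adjusted p = 0.00262), a fold of 1.48 and therefore under the fold threshold. The Hira value was 0.12 (SE 0.14, edgeR adjusted p = 0.543).

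The ratio of Tcf7 to Tcf7l1, each per kilobase of exon, put these values side by side within each library. It was 4.0 and 3.6 in controls, 4.6 and 3.3 with Hira depleted, 2.5 and 2.1 with Ubn1 depleted and 1.0 in both Ubn2 libraries. The activator and the repressor thus stood at like levels per length in Ubn2-depleted cells, where the activator was ahead in every other group. The ratio rests on the genes just described and was given no test. Exon length was taken over all annotated isoforms, which can shift the ratio in all libraries alike.

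Lef1 (chr3:131110471-131224356, plus strand), an activator and itself a target, read 3.36 and 7.42 CPM in controls, 4.93 and 7.97 CPM in Hira-depleted, 2.46 and 2.11 CPM in Ubn1-depleted and 3.13 and 2.65 CPM in Ubn2-depleted cells. The Ubn1 and Ubn2 libraries lay below both controls, although the first control library was only slightly above those of Ubn2. Lef1 fell 2.42-fold after Ubn1 depletion (log2 fold change -1.27, SE 0.29, edgeR adjusted p = 0.00436) and 1.91-fold after Ubn2 depletion (-0.93, SE 0.29, edgeR adjusted p = 0.0142). Both calls rested on the second control library: without it the values were -0.56 (edgeR adjusted p = 0.501) and -0.22 (edgeR adjusted p = 0.655). DESeq2 gave the Ubn2 change an adjusted p of 0.0759.

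Sp5 (chr2:70474923-70477729, plus strand), a zinc finger factor and direct target whose promoter is printed above, read 0.341 and 0.912 CPM in controls, 1.94 and 1.42 CPM in Hira-depleted, 0.502 and 0.346 CPM in Ubn1-depleted and 0.736 and 0.918 CPM in Ubn2-depleted cells. The Hira libraries lay above all others, and the Ubn1 and Ubn2 libraries each overlapped the controls. Sp5 rose 2.53-fold after Hira depletion (log2 fold change 1.34, SE 0.44, edgeR adjusted p = 0.0215), on 64 and 30 counts against 7 and 29 in controls. The call was lost with DESeq2 (adjusted p = 0.110), without the first control library (log2 fold change 0.88, edgeR adjusted p = 0.198) and without the first Hira library (1.08, edgeR adjusted p = 0.154). In Ubn1 and Ubn2 depletion the values were -0.65 (SE 0.58, edgeR adjusted p = 0.557) and 0.31 (SE 0.51, edgeR adjusted p = 0.659).

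Cdx1 (chr18:61018862-61036199, minus strand), a homeobox factor of posterior patterning, read 12.7 and 13.0 CPM in controls, 10.0 and 10.7 CPM in Hira-depleted, 12.3 and 13.2 CPM in Ubn1-depleted and 4.64 and 5.15 CPM in Ubn2-depleted cells. The Ubn2 libraries lay well below the rest and the Hira libraries slightly below control, while Ubn1 and control overlapped. Cdx1 fell 2.63-fold after Ubn2 depletion, the greatest of the 5 falls (log2 fold change -1.40, SE 0.17, edgeR adjusted p = 1.42e-06). The Hira value of -0.33 (SE 0.15, edgeR adjusted p = 0.0910) and the Ubn1 value of -0.01 (SE 0.15, edgeR adjusted p = 0.979) were not called.

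**Figure D2:**
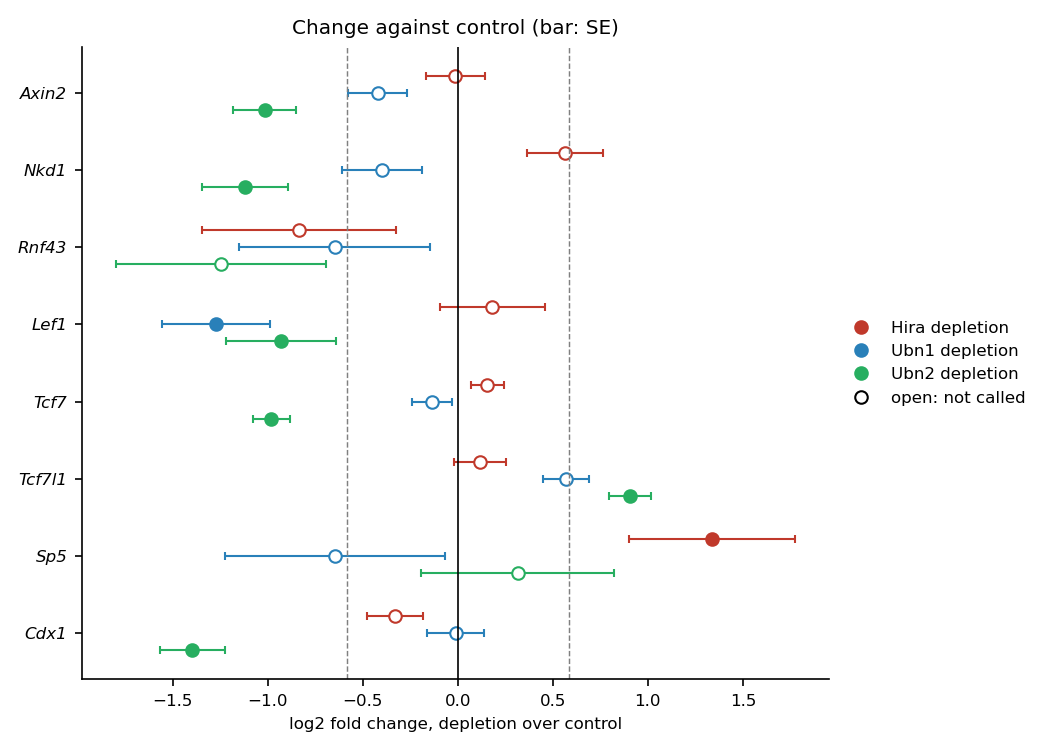
Log2 fold change of the 8 tested genes in each depletion over control, with bars for the SE, filled points for called genes and dashed lines at a fold of 1.5. Filled points are 6 for Ubn2 (5 lower and 1 higher), 1 for Hira (Sp5) and 1 for Ubn1 (Lef1).

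After Hira depletion, 1 of the 8 genes was called higher (Sp5) and 0 lower, where 10.8% and 5.4% of 19035 genes were called. At an unadjusted edgeR p under 0.05 there were 2 higher and 1 lower, and DESeq2 called 0 in either direction. After Ubn1 depletion, 1 was called lower (Lef1) and 0 higher, where 1.56% and 1.53% of 18373 genes were called. At an unadjusted edgeR p under 0.05, 2 were lower and 1 higher, and DESeq2 called 1 lower and 0 higher. The median log2 fold change of the 8 genes was 0.14 after Hira and -0.41 after Ubn1 depletion, against 0.01 and -0.0024 over all genes tested. The 3 comparisons share their control libraries, so that a control library that stands apart moves all of them.

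**Figure D3:**
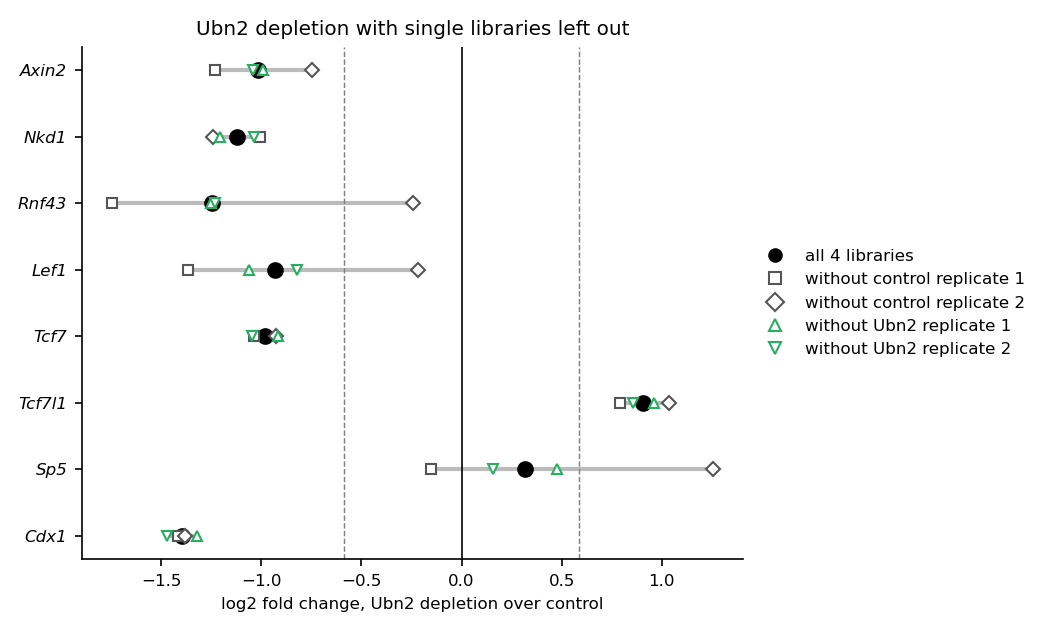
Log2 fold change of the 8 tested genes after Ubn2 depletion with all 4 libraries (black) and with each library left out (open symbols), with dashed lines at a fold of 1.5. Axin2, Nkd1, Tcf7, Tcf7l1 and Cdx1 stay outside the dashed lines, whereas Lef1 reaches -0.22 without the second control library.

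With single libraries left out, 5 of the 6 Ubn2 calls held in every fit. The log2 fold change ranged from -1.23 to -0.75 for Axin2, from -1.24 to -1.01 for Nkd1, from -1.04 to -0.91 for Tcf7, from 0.79 to 1.04 for Tcf7l1 and from -1.47 to -1.32 for Cdx1. Each such fit leaves an arm with a lone library, which is assumed to vary like the other arm. Rnf43 ranged from -1.75 to -0.24, the greatest spread among the genes below control.

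Some of the genes share exons with an antisense gene, and the strand setting of the counting is not given in the sources used here, so reads of the partners cannot be told apart. Gm11670 lies opposite Axin2 and changed by -1.40 on the log2 scale after Ubn2 depletion (edgeR adjusted p = 0.00582), from 2.14 to 0.809 CPM. Gm43352, opposite Lef1, changed by -1.69 after Ubn1 (edgeR adjusted p = 0.0114) and by -1.31 after Ubn2 depletion (edgeR adjusted p = 0.0192). Gm15401, opposite Tcf7l1, changed by 0.69 after Ubn1 (edgeR adjusted p = 0.0343) and by 1.04 after Ubn2 depletion (edgeR adjusted p = 0.000153). In these cases the antisense gene had the direction of its partner. After Hira depletion the values of Gm11670, Gm43352 and Gm15401 were -0.33, -0.22 and -0.053 (edgeR adjusted p = 0.461, 0.706 and 0.893), the last 2 opposite in sign to their partners.

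The depletions were then compared with each other directly, without the controls. Hira-depleted cells held more of 5 genes than Ubn2-depleted cells and less of 1, where 12.0% and 5.61% of 18563 genes were called. Nkd1 differed most, by 1.70 on the log2 scale (SE 0.23, edgeR adjusted p = 7.05e-05), followed by Tcf7 (1.16, SE 0.09, edgeR adjusted p = 5.77e-07), Lef1 (1.14, SE 0.26, edgeR adjusted p = 0.00373), Cdx1 (1.09, SE 0.18, edgeR adjusted p = 0.000321) and Axin2 (1.03, SE 0.16, edgeR adjusted p = 0.000163). Tcf7l1 was lower in Hira-depleted cells by the same test (-0.77, SE 0.13, edgeR adjusted p = 0.000296). Sp5 lay just outside the threshold (1.05, SE 0.39, edgeR adjusted p = 0.05005).

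Between the related subunits, Ubn2-depleted cells held less of 4 genes than Ubn1-depleted cells and more of 0, where 4.09% and 4.61% of 18205 genes were called lower and higher. Cdx1 differed by -1.39 (SE 0.18, edgeR adjusted p = 4.73e-05) and Tcf7 by -0.85 (SE 0.11, edgeR adjusted p = 4.90e-05). Axin2 (-0.60, SE 0.16, edgeR adjusted p = 0.0177) and Nkd1 (-0.72, SE 0.24, edgeR adjusted p = 0.0495) passed by a small margin, and DESeq2 gave them adjusted p-values of 0.0585 and 0.199. At an unadjusted edgeR p under 0.05, 1 gene was higher, and DESeq2 called 0 higher and 2 lower. The Lef1 difference of 0.34 was not called (edgeR adjusted p = 0.451).

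Hira-depleted cells held more of 3 genes than Ubn1-depleted cells and less of 0, where 9.52% and 3.16% of 18819 genes were called. These were Sp5 (2.01, SE 0.47, edgeR adjusted p = 0.00227), Lef1 (1.49, SE 0.27, edgeR adjusted p = 0.000198) and Nkd1 (0.98, SE 0.21, edgeR adjusted p = 0.00127). Without the first Hira library the Sp5 and Nkd1 calls were lost, at edgeR adjusted p-values of 0.0656 and 0.0790. At an unadjusted edgeR p under 0.05, 5 were higher and 1 lower, and DESeq2 called 3 higher and 0 lower. These direct comparisons also share libraries with each other.

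**Figure D4:**
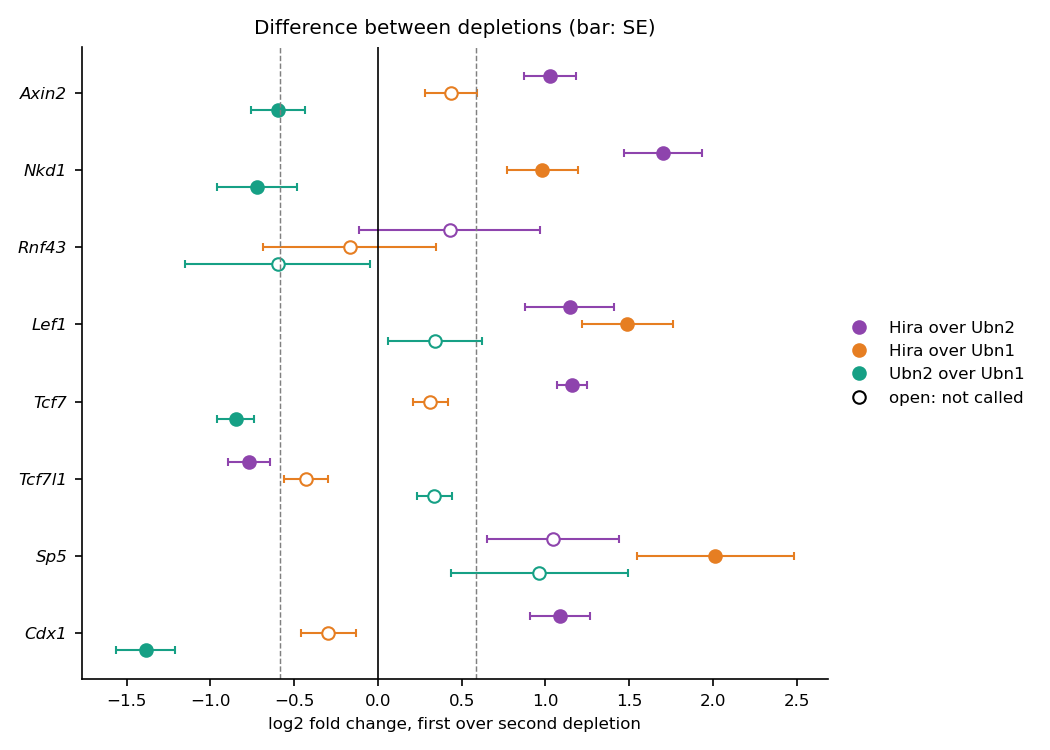
Log2 difference of the 8 tested genes between pairs of depletions, with bars for the SE, filled points for called genes and dashed lines at a fold of 1.5. Nkd1 is the gene called in all 3 pairs, and Rnf43 is called in none.

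The rest of the pathway was described from 118 genes in 9 lists. After Hira depletion 19 of 101 tested genes were higher and 6 lower, after Ubn1 depletion 4 and 2 of 94, and after Ubn2 depletion 14 and 10 of 95. Over all genes tested the shares called higher and lower were 10.8% and 5.4% after Hira, 1.53% and 1.56% after Ubn1 and 9.59% and 8.75% after Ubn2 depletion. The Hira count of lower genes and the Ubn2 count of lower genes lay near these shares, and no list was tested as a set. A gene low in either group of a comparison can pass the count filter through the other group alone, which fixes the direction of its call. This held for T after Ubn2 depletion and Cdx2 after Hira depletion, described below, and was not examined for the other genes.

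**Figure D5:**
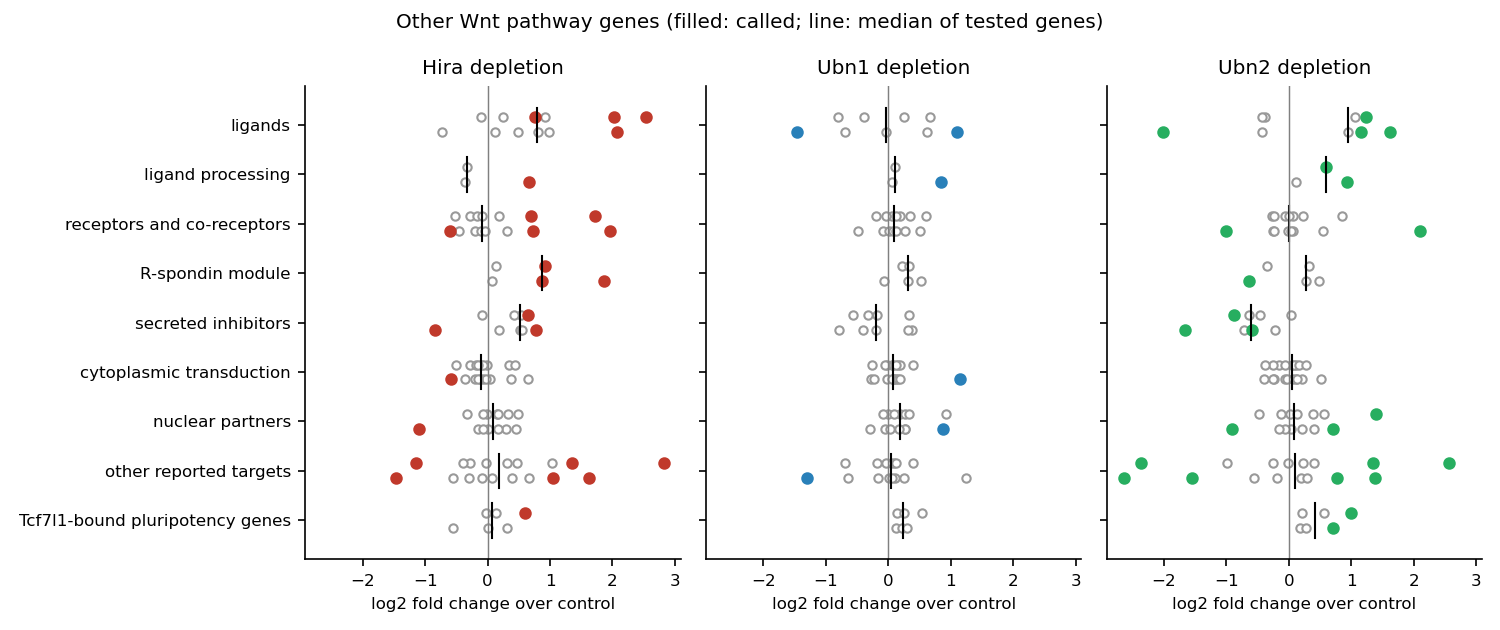
Log2 fold change over control of each tested gene in 9 lists of other Wnt pathway genes, per depletion on a shared horizontal axis, with filled points for called genes and a line for the median of the list. The secreted inhibitors have a median of 0.52 after Hira and -0.61 after Ubn2 depletion.

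Among the 19 Wnt ligands, 12 were tested after Hira depletion and 4 were higher, including Wnt5a (2.02, edgeR adjusted p = 0.000237) and Wnt6 (0.77, edgeR adjusted p = 0.00285), with 0 lower also at an unadjusted p under 0.05. The share of all genes called higher was 10.8%, and 9.59% after Ubn2 depletion. There, 3 of 9 ligands were higher, among them Wnt6 (from 5.39 to 11.9 CPM, edgeR adjusted p = 1.92e-05) and Wnt7b (1.23, edgeR adjusted p = 0.00451). Wnt11, a ligand mostly known for β-catenin-independent signalling, was lower after Ubn2 (-2.02, edgeR adjusted p = 0.000287) and after Ubn1 depletion (-1.45, edgeR adjusted p = 0.0112). Notum, a secreted enzyme that inactivates Wnt ligands and is itself a known target, rose in all 3 depletions, from 31.7 ± 1.65 CPM in controls to 51.2 ± 9.68 after Hira, 57.5 ± 1.81 after Ubn1 and 60.4 ± 1.2 after Ubn2 depletion (SD, n = 2). Its log2 fold changes were 0.67, 0.85 and 0.93 (edgeR adjusted p = 9.55e-05, 1.97e-06 and 6.86e-08). Wls, which carries ligands to the cell surface, was higher after Ubn2 depletion (0.59, edgeR adjusted p = 0.00687).

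Among 15 receptors and co-receptors, 4 were higher and 1 lower after Hira depletion, where 10.8% and 5.4% of all genes were called, with Fzd10 changing from 19.2 to 31.6 CPM (edgeR adjusted p = 9.68e-05). After Ubn2 depletion 1 was higher (Ror1, 2.09, edgeR adjusted p = 0.00966) and 1 lower (Fzd4, from 7.02 to 3.54 CPM, edgeR adjusted p = 0.00110), near the shares of 9.59% and 8.75% over all genes. After Ubn1 depletion edgeR called 0 of 14, where 1.53% of all genes were called higher and 1.56% lower. At an unadjusted edgeR p under 0.05, 1 receptor was higher and 1 lower. DESeq2 results were examined for the 10 target genes alone. In the R-spondin module, which protects the receptors from Rnf43, 3 of 5 tested genes rose after Hira depletion (10.8% of all genes): Rspo1 (0.91, edgeR adjusted p = 0.000826), Rspo4 (1.87, edgeR adjusted p = 0.00256) and Lgr6 (0.88, edgeR adjusted p = 0.00702). Rspo1 was lower after Ubn2 depletion (-0.63, edgeR adjusted p = 0.0445).

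Of 8 secreted inhibitors tested after Ubn2 depletion, 3 were lower, where 8.75% of all genes were. Dkk3 fell from 9.49 to 3.01 CPM (edgeR adjusted p = 1.02e-06), Sfrp1 from 63.3 to 42.3 CPM (edgeR adjusted p = 1.89e-05) and Sfrp2 from 11.1 to 6.11 CPM (edgeR adjusted p = 0.00123). After Hira depletion 2 of 9 were higher and 1 lower, where 10.8% and 5.4% of all genes were. The higher ones were Sfrp2 (0.64, edgeR adjusted p = 0.00181) and Kremen2 (0.77, edgeR adjusted p = 0.0262), and Sfrp4 was lower (-0.84, edgeR adjusted p = 0.000809). In the direct test 5 of 8 inhibitors were higher in Hira-depleted than in Ubn2-depleted cells, where 12.0% of all genes were. After Ubn1 depletion edgeR called 0 of 9 inhibitors, where 1.53% of all genes were called higher and 1.56% lower. At an unadjusted edgeR p under 0.05, 1 inhibitor was higher and 3 were lower.

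Of 19 cytoplasmic components that set β-catenin stability, 1 was lower after Hira depletion (Amer1, -0.59, edgeR adjusted p = 0.000424), where 5.4% of all genes were. After Ubn1 depletion 1 was higher (Apc2, 1.15, edgeR adjusted p = 0.0199), where 1.53% of all genes were. After Ubn2 depletion edgeR called 0, with 3 higher and 5 lower at an unadjusted p under 0.05, where 9.59% and 8.75% of all genes were called. Among 14 nuclear partners, Aes, a short Groucho-family protein, was lower after Hira depletion (from 233 to 110 CPM, edgeR adjusted p = 1.68e-09). Tcf7l2, the fourth TCF/LEF member, rose after Ubn1 depletion (0.87, edgeR adjusted p = 0.00876) and after Ubn2 depletion (from 4.37 to 11.5 CPM, edgeR adjusted p = 2.57e-06). The co-repressor Tle4 rose after Ubn2 depletion (0.70, edgeR adjusted p = 5.07e-07), while Tle2 was lower (-0.92, edgeR adjusted p = 0.0419).

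Other reported targets were called in both directions. After Ubn2 depletion, where 9.59% of all genes were higher and 8.75% lower, 4 of 16 were higher, with Kdr, a receptor of endothelial progenitors, at 2.56 (edgeR adjusted p = 8.35e-08) and the cyclin gene Ccnd1 at 0.78 (edgeR adjusted p = 7.41e-08), and 3 were lower, among them Ascl2 (-2.64, edgeR adjusted p = 6.61e-06) and the mesoderm factor T (-2.36, edgeR adjusted p = 0.0221). Ascl2 was also lower after Hira (-1.47, edgeR adjusted p = 0.000942) and Ubn1 depletion (-1.30, edgeR adjusted p = 0.00712). After Hira depletion 4 of 18 were higher (10.8% of all genes), including Kdr (1.62, edgeR adjusted p = 0.000162) and Cdx2 (2.82, edgeR adjusted p = 0.00331), a paralogue of Cdx1.

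Tcf7l1 is known to bind and restrain pluripotency genes, of which 6 were described. After Ubn2 depletion 2 of the 6 were called higher (9.59% of all genes), Nr0b1 (from 98.2 to 197 CPM, edgeR adjusted p = 4.20e-10) and Tbx3 (from 166 to 271 CPM, edgeR adjusted p = 4.78e-07). At an unadjusted edgeR p under 0.05 all 6 were higher and 0 lower, and the share of all genes at that threshold was not computed. By adjusted p alone, without the fold threshold, 3645 of 18219 genes were higher. A link to the Tcf7l1 level was not tested. Nr0b1 rose after Hira depletion too (0.60, edgeR adjusted p = 9.07e-06).

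Primitive streak and mesoderm markers, the cell type in which Wnt targets are high in the embryo, summed to 12.3 and 12.8 CPM in controls and 10.9 CPM in both Ubn2 libraries, with 15.3 and 18.1 CPM after Hira depletion. Of the 6 tested after Hira depletion, 1 was called higher and 1 lower, where 10.8% and 5.4% of all genes were. Tbx6 went against the sum there, at 0.969 and 0.474 CPM against 1.27 and 1.98 CPM in controls. The summed neural markers were 110 and 121 CPM in controls, 226 and 238 CPM in Hira-depleted, 145 and 171 CPM in Ubn1-depleted and 103 and 112 CPM in Ubn2-depleted cells. After Hira depletion Tubb3 read 158 and 169 CPM and Nefl 51.3 and 47.9 CPM, while Sox1 overlapped the controls. Of the 5 markers 3 were called higher there and 0 lower (10.8% and 5.4% of all genes). After Ubn2 depletion 1 was called higher and 1 lower (9.59% and 8.75% of all genes). The higher Ubn1 sum was that of Tubb3, the highest neural marker (126 and 148 against 86.5 and 91.4 CPM in controls). Nefl (9.12 and 11.1 against 12.3 and 13.9 CPM) and Neurod1 (2.69 and 4.15 against 5.21 and 7.83 CPM) lay lower there, and Sox1 and Pax6 overlapped the controls. Primitive endoderm markers summed to 9.03 and 10.8 CPM after Ubn1 depletion against 14.4 to 16.9 CPM in the other groups, and trophoblast markers to 15.8 and 16.9 CPM after Hira depletion against 10.1 to 11.6 CPM in the others. The streak and trophoblast lists share Eomes, the highest gene of both, which read 11.0 and 14.2 CPM after Hira depletion and 8.86 and 9.08 CPM in controls. The part of these markers in the results on the 10 genes was not tested.

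The genes whose log2 CPM followed that of Axin2 most closely over the 8 libraries, among 10354 genes, were Taf5 (r = 0.99), Syt9 (r = 0.98) and Ibtk (r = 0.97). Their range was narrower, Taf5 lying between 33.8 and 44.1 CPM where Axin2 lay between 8.09 and 19.2 CPM. Among the 10 genes, the values were 0.92 for Tcf7, 0.80 for Cdx1, 0.79 for Nkd1, 0.76 for Lef1, 0.65 for Rnf43, 0.54 for Dkk1, 0.38 for Lgr5, 0.30 for Sp5 and -0.77 for Tcf7l1. They are a description of points that share controls and depletion groups, and no p was computed.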

How the data were processed

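RNA was sequenced from 8 libraries of E14 ESCs, 2 per group. The authors deposited raw counts per gene, without normalization, in 3 tables that each hold 1 depletion beside the same controls (0 differing control values). Per the labels and the study's methods, reads were trimmed with Trim Galore, aligned to GRCm38 with STAR and counted with featureCounts. Their versions, the strand setting and the handling of multiply aligned reads are not given in the sources used here. Positions and exon lengths come from GENCODE M21 of GRCm38, and promoters from RefSeq.

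Each pair of groups was fitted by itself with edgeR 4.0.16 in R 4.3.3: TMM normalization (factors 0.970 to 1.06 over the 8 libraries), filterByExpr, quasi-likelihood tests, and Benjamini-Hochberg adjustment over all genes tested. Calls required an adjusted p under 0.05 together with a fold above 1.5, the thresholds of the study. The SE was obtained as the absolute log2 fold change over the root of the F statistic. CPM values use TMM-scaled library sizes. With 2 libraries a group, an exact permutation test of a single gene cannot give a p under 0.333, so none was used. Low counts were compared by exact binomial intervals at 95%.

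The genes and lists were chosen with earlier results of these data known. Named genes are the 10, the targeted genes, up to 3 called genes per list and depletion by smallest adjusted p, the highest marker of a list and up to 3 called markers, and the 3 genes most like Axin2 (mean of at least 10 CPM, pseudocount 0.5). Further markers, among them Col3a1, Hbb-bs and Myl7, and the antisense partners are given as limits of a result. Alternatives were DESeq2 1.42.0 (the study's tool), its size factors in edgeR, other filters, a joint fit of the 8 libraries, a block for replicate number, adjusted p alone and each library left out. The fits were tested on simulated data. Tables and plots were made in Python 3.11.15 with pandas 2.3.3, matplotlib 3.10.9, scipy 1.17.1 and numpy 2.4.6.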

Additional observations from a re-analysis of the deposited data

Results flagged for a closer look

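The direct tests between depletions found 13 differences past both thresholds (edgeR quasi-likelihood test, log2 scale). In Hira-depleted over Ubn2-depleted cells these were Axin2 (1.03), Nkd1 (1.70), Lef1 (1.14), Tcf7 (1.16), Cdx1 (1.09) and Tcf7l1 (-0.77). In Hira-depleted over Ubn1-depleted cells they were Nkd1 (0.98), Lef1 (1.49) and Sp5 (2.01). In Ubn2-depleted over Ubn1-depleted cells they were Axin2 (-0.60), Nkd1 (-0.72), Tcf7 (-0.85) and Cdx1 (-1.39). Groups of 2 libraries are too small to look for an outlying library.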

How the results depend on the processing

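Among the 10 genes, the number called higher after Hira depletion, 1 in the report, was 0 with DESeq2 or with at least 10 counts in every library, and 2 without a filter (Sp5 and Lgr5) or by adjusted p alone. By adjusted p alone, 1 was higher after Ubn1 depletion, 5 were higher and 1 lower in Hira-depleted over Ubn1-depleted cells, and 1 was higher in Ubn2-depleted over Ubn1-depleted cells, where DESeq2 called 2 lower. The cause of these shifts was not tested. The Axin2 change after Hira depletion, -0.01, was 0.00025 with at least 10 counts in every library and 0.0065 with all 8 libraries in one fit, each far within its SE.

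The labels do not say whether libraries of equal replicate number shared a culture or batch. The deviations of same-numbered libraries correlated between -0.0998 and 0.0953 over 19264 genes, which cannot settle that. A replicate block gave 0.016 for Axin2 after Hira depletion, and 0.020 with all 8 libraries in the block fit, and moved no count of the 10 genes by over 1.5 times.

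With single libraries left out, the counts called were 1 to 2 higher after Hira depletion, 0 to 1 higher and 0 to 2 lower after Ubn1 depletion, 4 to 6 lower after Ubn2 depletion, 0 to 1 lower in Hira over Ubn2, 0 to 1 lower in Hira over Ubn1 and 2 to 3 lower in Ubn2 over Ubn1. After Hira depletion Axin2 ranged from -0.22 to 0.26, Rnf43 from -1.34 to 0.16, Lef1 from -0.25 to 0.90 and Tcf7l1 from -0.10 to 0.32. After Ubn1 depletion Rnf43 ranged from -1.14 to 0.35, Sp5 from -1.11 to 0.29 and Cdx1 from -0.065 to 0.030, and after Ubn2 depletion Sp5 from -0.15 to 1.26. Calls not made with all libraries appeared without the first control library (Nkd1 after Hira depletion, Axin2 after Ubn1, Rnf43 after Ubn2), without the second (Lef1 after Hira, Tcf7l1 after Ubn1), without the first Ubn1 library (Tcf7l1), without the second Hira library (Nkd1 against control, Sp5 over Ubn2, Tcf7l1 over Ubn1) and without the first (Axin2 over Ubn1). Lgr5 was too low to be tested with all libraries. With an arm cut to a lone library, it passed the filter through the Hira libraries alone, where it is highest. Without the first Hira library its log2 fold change was 3.39 against control, 2.52 over Ubn2 and 4.21 over Ubn1. It was 6.81 in Hira over Ubn1 without the second Ubn1 library. These higher calls had their direction fixed by the filter and are no support for a change of Lgr5. Without the first Hira library, the call counted as higher after Hira depletion was that of Lgr5 and not of Sp5. Calls lost beyond those of Lef1, Sp5 and Nkd1 in the report were Tcf7l1 in Hira over Ubn2 without the first Hira library (-0.57, under the fold threshold), Axin2 in Ubn2 over Ubn1 without the first Ubn1 library or either Ubn2 library (-0.62 to -0.55) and Nkd1 in the same comparison without the second Ubn1 library or either Ubn2 library (-0.81 to -0.64). With at least 10 counts in every library, that Nkd1 difference missed the threshold (edgeR adjusted p = 0.0525) and Sp5 in Hira over Ubn2 passed it (edgeR adjusted p = 0.0295), as it did with no filter (edgeR adjusted p = 0.0332). The low counts of Dkk1, Lgr5, Sp5 and Rnf43 limit what can be said of them.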
